A study of Arabidopsis lyrata and Arabidopsis thaliana with 9 samples.

Results

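The cell cycle machinery examined here comprised 47 Arabidopsis thaliana genes: 5 cyclin-dependent kinases (CDKs), 25 cyclins of classes A, B and D, 9 CDK inhibitors of the KRP and SIAMESE (SIM) families, the kinase WEE1, 3 E2F transcription factors, the retinoblastoma-related protein RBR1 and 3 CCS52 activators of the anaphase-promoting complex. They were taken from a list of loci by role, with no threshold on a measured value. All 47 were found among the 27176 gene models counted in the A. thaliana libraries, and each had counts in all 3 libraries. The libraries came from inflorescences of wild-type Col-0 plants, the standard laboratory accession, taken after bolting from plants grown in long days in a greenhouse. They are described as biological replicates and held 6263918, 14004158 and 6330211 counts in libraries 1, 2 and 3. The labels do not say whether they came from separate plants, so the spread given here is that between these libraries and may be partly technical. The series also holds leaf and inflorescence libraries of Arabidopsis lyrata. Their numeric gene identifiers could not be tied to these loci, so they were not used here and no tissue or species is compared.

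In plants, as in other eukaryotes, a CDK acts together with a bound cyclin. D-type cyclins with CDKA phosphorylate RBR1 and release E2F factors at the entry into DNA replication. A- and B-type cyclins with CDKA and the plant-specific CDKB kinases act from replication to mitosis. KRP and SIM proteins inhibit CDK complexes. CCS52 proteins direct mitotic cyclins to destruction, which favours endoreduplication, the replication of DNA without division. Inflorescences hold dividing meristems and floral buds as well as organs whose cells no longer divide. In such bulk tissue, fewer dividing cells and less RNA per cell cannot be told apart.

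Levels of different genes are given in TPM, in which counts are divided by the exonic length of the counted model and scaled to a common total. Single genes are compared between libraries in CPM, in which counts are divided by the library total. The floral identity genes SEP3, AP1, PI, AP3 and AG averaged 359, 280.5, 276, 203 and 103 TPM and LFY had 7.01, 2.66 and 2.62 TPM in libraries 1, 2 and 3. Of 3 seed markers, CRU3 and SESA1 had no counts and CRA1 averaged 0.365 TPM. Of 3 root markers, RHD6 had no counts, WER averaged 0.128 TPM and COBL9, a gene of root hairs, averaged 4.37 ± 0.429 TPM (SD, n = 3).

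The 47 genes covered a 74.5-fold span of levels, from 1.41 to 105 TPM. Their median level was 14.9 TPM, against 9.55 TPM over all 26665 models with a length, and their median percentile by level was 58.0. These models include some without counts, and among models with at least 1 count the median percentile of the 47 was 50.4. Of the 47 genes, 34 (72.3%) stood at a mean of 10 CPM or more, against 48.4% of all 27176 models, of which 22665 had a count. The 12 genes above the 80th percentile were 4 D-type cyclins, 1 B-type cyclin, 2 of the CDKs, KRP2, both SIM-type inhibitors, RBR1 and CCS52B. No A-type cyclin and no E2F factor was among them, and WEE1 stood at 5.19 TPM. A total of 11 genes lay under the 50th percentile.

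**Figure D1:**
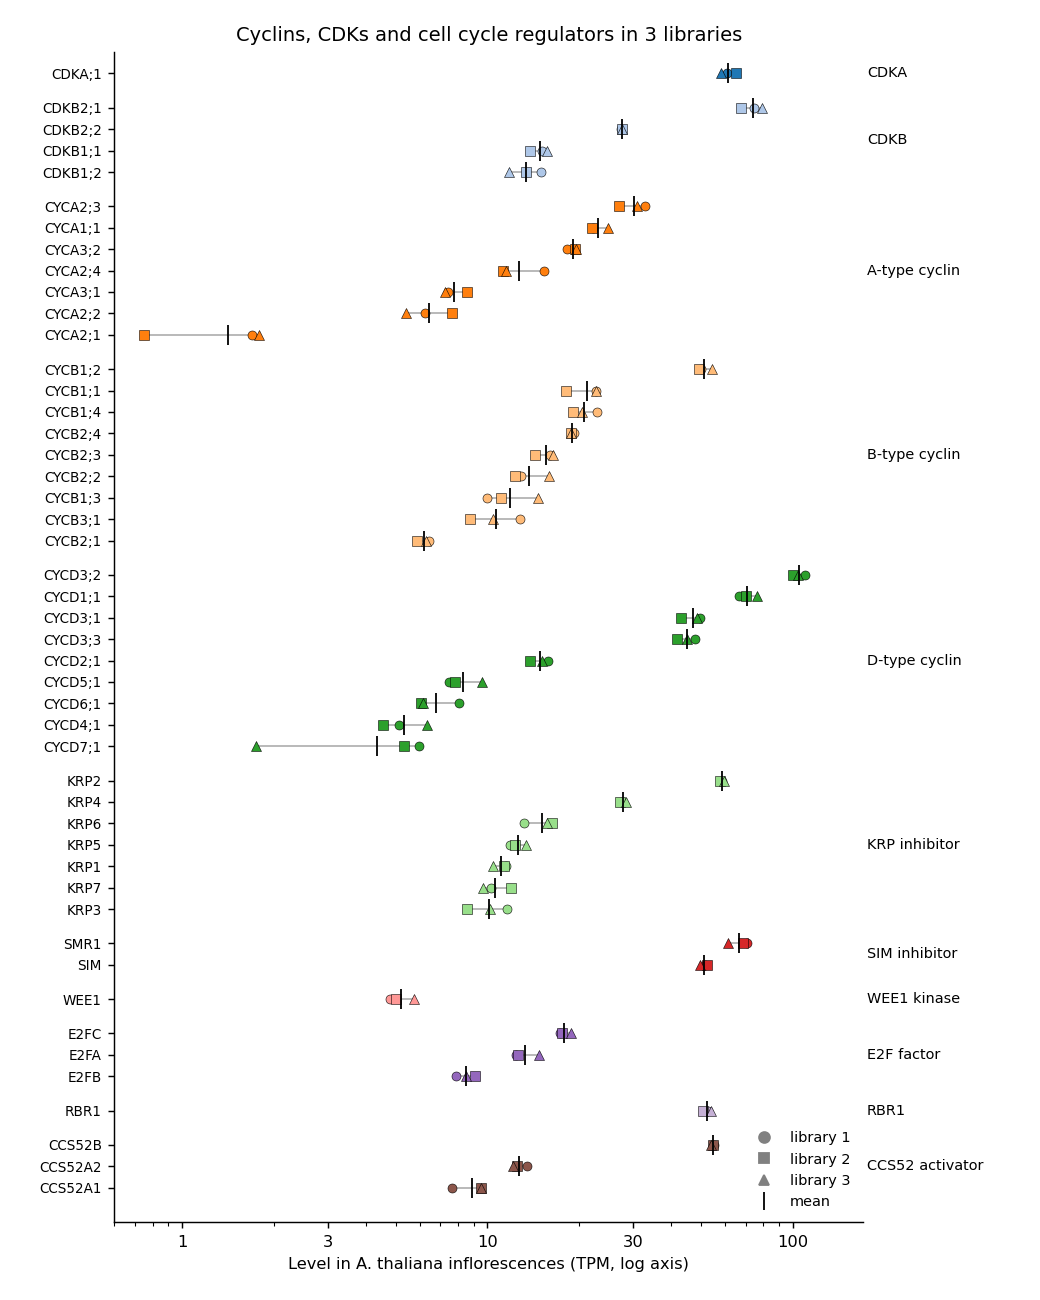
Level of each of the 47 genes in TPM (log axis), grouped by class and ordered by mean within the class. Circles, squares and triangles are libraries 1, 2 and 3, the grey line is their range and the black tick the mean. The means run from 1.41 TPM in an A-type cyclin to 105 TPM in a D-type cyclin, and the lowest D-type cyclin has its library 3 value at 1.75 TPM, apart from 5.97 and 5.31 TPM in libraries 1 and 2.

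CDKA;1 (AT3G48750), the A-type kinase and counterpart of yeast Cdc2, had 60.8, 65.3 and 58.0 TPM in libraries 1, 2 and 3. In TAIR10.1 it occupies bases 18071454 to 18074641 of chromosome 3, plus strand, and the counted model has 9 exons. CDKB2;1 (AT1G76540), a kinase of the transition from G2 to mitosis, had 74.8, 67.5 and 79.1 TPM. Its values all lay above those of the A-type kinase, with a mean ratio of 1.21 ± 0.166 (SD, n = 3), although over coding length the means were 64.5 and 62.6 TPM. The other B-type kinases were lower. CDKB2;2 (AT1G20930) stood at 27.5 ± 0.0483 TPM, CDKB1;1 (AT3G54180) at 14.85 ± 0.970 TPM and CDKB1;2 (AT2G38620) at 14.98, 13.3 and 11.8 TPM. AT1G76540 exceeded its closest relative AT1G20930 by 2.72-, 2.45- and 2.87-fold in libraries 1, 2 and 3, whereas the ranges of both CDKB1 kinases overlapped. AT1G76540 alone held 56.9% ± 1.90 of the summed CDKB level. All 4 CDKB genes overlap an annotated gene of the other strand, and each CDKB pair shares much of its sequence, which leaves these levels less certain than that of the A-type kinase. How reads matching several genes were assigned is not given in the sources used here.

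D-type cyclins, the partners of CDKA that link growth signals to entry into the cycle, had the largest summed level of the 3 cyclin classes. They summed to 317, 293 and 313 TPM in libraries 1, 2 and 3, against 173, 158 and 180 TPM for B-type and 104, 96.6 and 101 TPM for A-type cyclins. D-type cyclins thus held 53.2% ± 0.431 of the summed cyclin level, B-type cyclins 29.4% ± 0.781 and A-type cyclins 17.4% ± 0.350 (SD, n = 3). The class medians lay much closer together, at 14.9, 15.6 and 12.7 TPM for D-, B- and A-type genes. CYCD1;1 and the 3 CYCD3 genes held 87.1% ± 0.483 of the D-type sum.

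**Figure D2:**
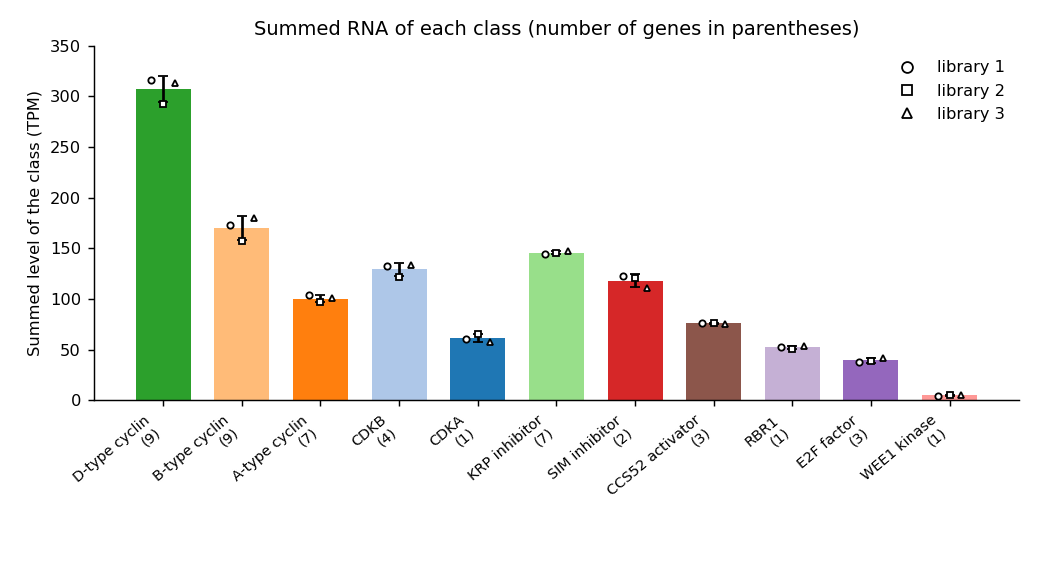
Summed level of each class in TPM. Bars are means over the 3 libraries, error bars the SD and open symbols the libraries, and D-type cyclins reach 307.5 TPM while WEE1 stands at 5.19 TPM.

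CYCD3;2 (AT5G67260) had the highest level of the 47, at 109.9, 100.5 and 104 TPM. The CYCD3 genes set cell number in developing lateral organs and respond to cytokinin. It occupies bases 26836139 to 26837874 of chromosome 5, plus strand, in 4 exons. It exceeded its relative CYCD3;1 (AT4G34160) by 2.24-fold ± 0.0963. AT4G34160, with 49.6, 42.9 and 48.4 TPM, and CYCD3;3 (AT3G50070), with 47.9, 41.7 and 45.1 TPM, had overlapping ranges. CYCD1;1 (AT1G70210) had 66.7, 70.0 and 76.4 TPM and overlapped none of the CYCD3 genes. First place depended on the length used. Over coding length AT1G70210 averaged 105.1 TPM, SMR1 86.0 TPM and AT5G67260 85.2 TPM.

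The next D-type gene, CYCD2;1 (AT2G22490), stood at 14.9 ± 1.02 TPM, below every value of the 4 leading genes. CYCD5;1 (AT4G37630) averaged 8.30 TPM, CYCD6;1 (AT4G03270), a target of the root regulators SHORT-ROOT and SCARECROW, 6.76 TPM and CYCD4;1 (AT5G65420) 5.34 TPM. CYCD7;1 (AT5G02110), known from the last division of the stomatal lineage, had the lowest mean, with 5.97 and 5.31 TPM in libraries 1 and 2 and 1.75 TPM in library 3. AT1G70210, AT5G67260 and AT4G03270 overlap a gene of the other strand, and AT4G34160 overlaps a gene on its own strand.

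Among the 7 A-type cyclins, CYCA2;3 (AT1G15570), which limits endoreduplication, was the highest at 32.8, 27.0 and 30.8 TPM. It held 29.98% ± 1.86 of the sum of these 7 genes and overlaps a gene of the other strand. CYCA1;1 (AT1G44110) followed at 23.0 ± 1.60 TPM, with no overlap of the ranges. The sum leaves out A-type cyclins outside the 47, of which CYCA3;4 was the highest at 22.0 ± 0.524 TPM. CYCA3;2 (AT1G47210), of a group linked to replication, stood at 19.0 ± 0.645 TPM and its relative CYCA3;1 (AT5G43080) at 7.76 ± 0.730 TPM, a mean ratio of 2.46 ± 0.211. CYCA2;4 (AT1G80370) and CYCA2;2 (AT5G11300) averaged 12.7 and 6.44 TPM. CYCA2;1 (AT5G25380) had the lowest mean of the 47, with 1.69, 0.751 and 1.79 TPM, and rested on 12, 12 and 13 counts. Its range lay below that of every other gene of the 47 except AT5G02110, whose library 3 value fell within it.

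B-type cyclins are the mitotic cyclins, made around G2 and destroyed in mitosis. CYCB1;2 (AT5G06150) was the highest of the 9, at 50.1, 49.3 and 54.6 TPM, and held 30.2% ± 1.17 of the class sum. It occupies bases 1859279 to 1861703 of chromosome 5, minus strand, in 5 exons. CYCB1;1 (AT4G37490), widely used as a reporter of cells in G2 and mitosis, had 22.7, 18.1 and 22.6 TPM, and AT5G06150 exceeded it by 2.45-fold ± 0.257. The next were CYCB1;4 (AT2G26760), CYCB2;4 (AT1G76310), CYCB2;3 (AT1G20610), CYCB2;2 (AT4G35620), CYCB1;3 (AT3G11520) and CYCB3;1 (AT1G16330), which ran in this order from 20.7 to 10.7 TPM. Over coding length the last of these stood at 6.67 TPM. CYCB2;1 (AT2G17620) was the lowest at 6.43, 5.86 and 6.28 TPM. None of the 9 overlaps another annotated gene.

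The 250 bases upstream of the annotated transcript starts were searched for the M-specific activator (MSA) element, which is bound by MYB3R factors in genes of G2 and mitosis. Its core was searched as AACGG and a longer form as CNAACGG, which contains the core, on both strands. The longer form was found in 6 of 9 B-type cyclins (66.7%) and in 1 A-type cyclin, AT1G44110. That makes 7 of the 47 genes (14.9%), against 4.55% of the 26664 models with a complete window. The B-type cyclins without either form in this window were CYCB1;4, CYCB2;4 and CYCB3;1. The core was present in 38.3% of the 47 genes, 4 of the 7 KRP genes included, and in 20.9% of all models. A match is a run of letters and was not tested for binding.

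Shown here are the windows of 4 B-type cyclins that carry the longer MSA form and of the A-type cyclin that shares it. They read 5′ to 3′ along the gene and end at the base before the transcript start. Capitals mark AACGG or its reverse complement CCGTT. The sequences are from the RefSeq genome TAIR10.1, at chr4:17624309-17624558 for AT4G37490 (minus strand), chr5:1861704-1861953 for AT5G06150 (minus strand), chr3:3627274-3627523 for AT3G11520 (minus strand), chr4:16901346-16901595 for AT4G35620 (plus strand) and chr1:16777353-16777602 for AT1G44110 (minus strand). None of these windows overlaps an annotated exon.
CYCB1;1: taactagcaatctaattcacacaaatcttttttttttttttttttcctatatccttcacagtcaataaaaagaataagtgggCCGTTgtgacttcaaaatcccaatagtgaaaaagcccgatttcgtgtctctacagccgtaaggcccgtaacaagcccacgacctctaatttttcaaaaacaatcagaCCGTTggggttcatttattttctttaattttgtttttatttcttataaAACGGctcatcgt
CYCB1;2: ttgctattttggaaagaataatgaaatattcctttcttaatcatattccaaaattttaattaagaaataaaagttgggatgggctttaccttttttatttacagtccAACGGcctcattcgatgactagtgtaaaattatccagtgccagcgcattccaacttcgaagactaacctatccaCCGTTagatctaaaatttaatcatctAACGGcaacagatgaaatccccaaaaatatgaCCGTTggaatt
CYCB1;3: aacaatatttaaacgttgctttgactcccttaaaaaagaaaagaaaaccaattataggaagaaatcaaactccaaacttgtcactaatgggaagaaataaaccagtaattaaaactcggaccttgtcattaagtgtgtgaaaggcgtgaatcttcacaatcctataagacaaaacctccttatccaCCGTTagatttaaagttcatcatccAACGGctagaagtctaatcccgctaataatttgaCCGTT
CYCB2;2: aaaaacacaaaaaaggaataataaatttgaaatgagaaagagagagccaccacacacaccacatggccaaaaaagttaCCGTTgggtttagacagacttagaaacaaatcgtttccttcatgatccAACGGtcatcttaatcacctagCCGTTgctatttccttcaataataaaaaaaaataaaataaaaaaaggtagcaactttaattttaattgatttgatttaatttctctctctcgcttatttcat
CYCA1;1: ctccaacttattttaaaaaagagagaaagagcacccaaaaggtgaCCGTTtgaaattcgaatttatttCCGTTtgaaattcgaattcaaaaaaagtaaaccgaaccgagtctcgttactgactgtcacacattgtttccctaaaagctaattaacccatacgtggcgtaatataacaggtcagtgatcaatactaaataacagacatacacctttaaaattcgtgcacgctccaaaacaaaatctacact
The highest B-type cyclin, CYCB1;2, had 4 matches to the longer form, and the other genes with a match had 1 or 2. Level and match did not go together throughout. Without a match, AT2G26760 and AT1G76310 stood at 20.7 and 18.95 TPM, while AT3G11520 and AT2G17620, with matches, stood at 11.9 and 6.19 TPM.

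**Figure D3:**
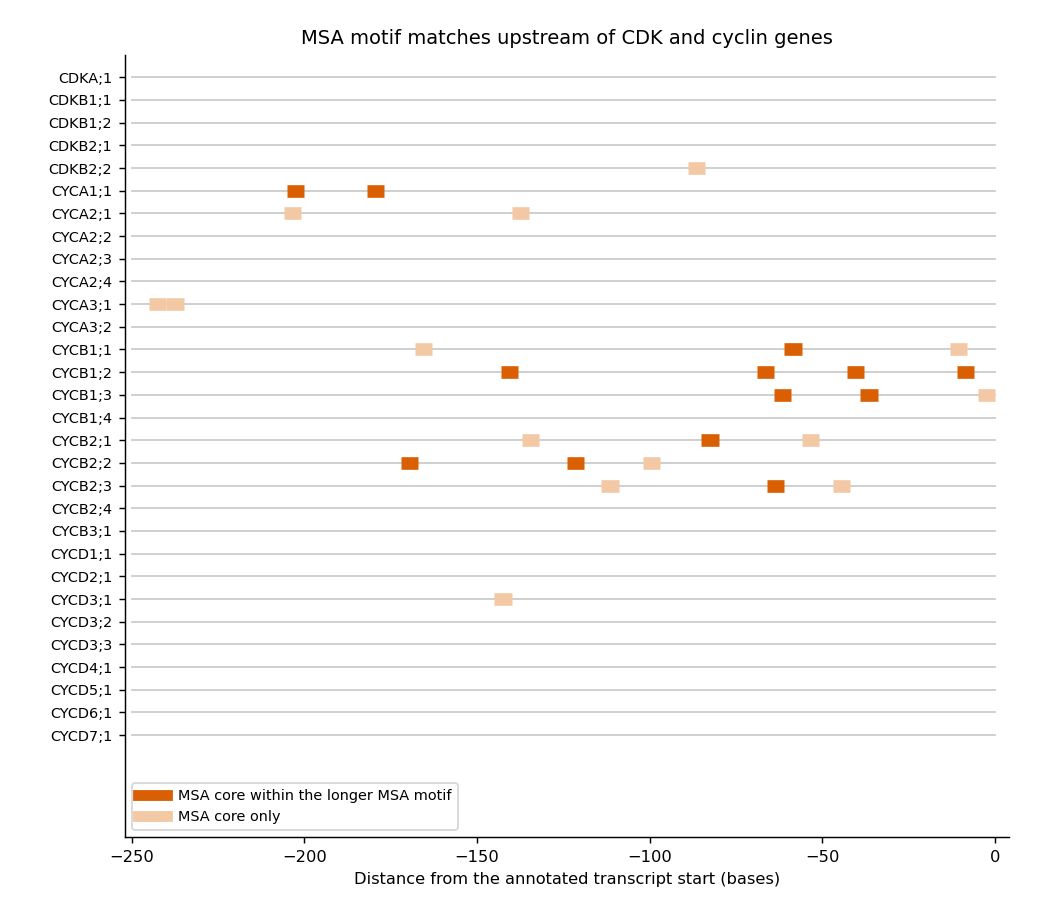
Motif matches in the 250 bases upstream of the CDK and cyclin genes, by distance from the annotated transcript start in bases. Dark orange marks an MSA core within the longer form and pale orange the core only. Dark orange appears in 6 of the 9 B-type cyclins and in 1 A-type cyclin.

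The KRP inhibitors, which bind CDK-cyclin complexes, summed to 144.5, 145 and 147 TPM in libraries 1, 2 and 3. KRP2 (AT3G50630), known to restrain lateral root initiation, led with 58.6, 57.7 and 59.4 TPM and exceeded KRP4 by 2.12-fold ± 0.0221. It occupies bases 18800306 to 18801595 of chromosome 3, plus strand, in 4 exons. KRP4 stood at 27.7 ± 0.619 TPM, and both together held 59.2% ± 0.690 of the class sum. KRP4 overlaps a gene of the other strand, and over coding length it stood at 45.9 TPM and KRP2 at 59.4 TPM. The other 5 were, from high to low, KRP6 at 15.03 TPM, KRP5, KRP1, KRP7 and KRP3 at 10.11 TPM. Neighbours in this series overlapped in range except KRP5 and KRP1. KRP3 had 11.6, 8.57 and 10.19 TPM.

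Both SIAMESE-type inhibitors stood among the 12 highest genes. SMR1 (AT3G10525), also called LGO, which sets the giant cells of the sepal epidermis, had 70.9, 68.5 and 61.3 TPM. SIM (AT5G04470), which prevents division in leaf hairs, had 51.6, 52.2 and 49.8 TPM. The SMR1 range lay above the SIM range, with a mean ratio of 1.31 ± 0.0717. The 9 KRP and SIM inhibitors summed to 264 ± 4.82 TPM, the 5 CDKs to 191 ± 3.02 TPM and the 25 cyclins to 578 ± 27.2 TPM. Both SIAMESE-type genes have 1 exon and overlap a gene of the other strand.

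RBR1 (AT3G12280), the repressor of E2F factors, had 52.9, 50.9 and 53.8 TPM. The E2F factors were lower, and RBR1 exceeded E2FC, the highest of them, by 2.95-fold ± 0.0945. E2FC, which acts mainly as a repressor, had 17.3, 17.5 and 18.7 TPM. E2FA, an activator of replication genes, stood at 13.2 ± 1.30 TPM. E2FB, also an activator, had 7.90, 9.11 and 8.48 TPM, and none of the 3 E2F ranges overlapped. WEE1, the kinase that holds CDKs inactive after DNA damage, had 4.80, 5.01 and 5.76 TPM. RBR1 and E2FA overlap a gene of the other strand.

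Of the CCS52 activators, CCS52B (AT5G13840), which is expressed around mitosis, had 55.1, 54.8 and 53.9 TPM. CCS52A2, which promotes endoreduplication, stood at 12.7 ± 0.690 TPM, and CCS52A1, with the same role, had 7.68, 9.55 and 9.52 TPM. CCS52B held 71.6% ± 0.544 of the class sum and exceeded CCS52A2 by 4.31-fold ± 0.190. CCS52B overlaps genes of the other strand and CCS52A2 a gene on its own strand.

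Ordered by level, most neighbours could not be separated. Of 46 neighbouring pairs in the order, 38 had overlapping ranges over the 3 libraries and 8 did not. The gap below the gene ranked 12, CYCD3;3 at 44.9 TPM, set the 12 highest genes apart from CYCA2;3, the next at 30.2 TPM. Which genes stand in this group depends on the length used. Over coding length KRP4, at 45.9 TPM, stood above CYCD3;3, at 35.85 TPM.

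Between libraries, the highest value of a gene among the 47 exceeded its lowest by a median of 1.16-fold in CPM, against 1.18-fold over the 18486 models with at least 30 counts. A range of 1.5-fold or more was found in 2 of the 47 (4.26%) and in 14.4% of all tested models. With edgeR's likelihood-ratio test against counting error alone, which compares these libraries and no condition, 1 of the 47 genes (2.13%) differed at a Benjamini-Hochberg adjusted p under 0.05, against 11.6% of all models tested. At an unadjusted p under 0.05 the numbers were 9 of 47 (19.1%) and 23.6%. The 47 genes held 37 to 3288 counts each, which limits what can be detected for the lowest. Range and test both depend on the number of counts. By edgeR's estimate of the spread beyond counting error, the median coefficient of variation was 0.0862 for the 47 genes and 0.0780 for all tested models.

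The gene that passed was CYCD7;1. It occupies bases 416917 to 418666 of chromosome 5, plus strand, in 4 exons. It had 30, 60 and 9 counts, or 4.79, 4.28 and 1.42 CPM, in libraries 1, 2 and 3. Library 3 was lower than both others, a 3.37-fold range (edgeR likelihood-ratio test, adjusted p = 0.00919), and the test of libraries 1 and 2 alone gave an adjusted p of 0.885 with edgeR. All 5 markers of mature pollen were also lowest in library 3, passed the same test and summed to 665, 918 and 412 TPM in libraries 1, 2 and 3. Their part in the value of CYCD7;1 was not tested. The other gene with a range over 1.5-fold, CYCA2;1, had 1.92, 0.857 and 2.05 CPM and did not pass (edgeR adjusted p = 0.206).

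The B-type cyclins leaned the same way between libraries. All 9 stood below their own mean in library 2, by a median of -0.12 on the scale of log2(CPM + 0.5), and library 2 was the lowest for 8 of the 9. Over all tested models the median was -0.0027. Of these 18486 models, 9429 stood below their mean in library 2, and library 2 was the lowest for 5907. Of the D-type cyclins, 8 of 9 stood below their mean in library 2, with a median of -0.10, and CYCD7;1 was the exception. The A-type cyclins and the KRP inhibitors each had 4 of 7 genes below, with medians of -0.062 and -0.022. Of the 4 CDKB genes 3 stood below, while both SIM-type inhibitors stood above. Of all 47 genes 33 stood below, 21 of the 25 cyclins among them. Genes measured in the same libraries are not replicates, so these counts give no test of the lean. None of the 9 B-type cyclins passed edgeR's test, and 3 had an unadjusted p under 0.05. Over all tested models these shares were 11.6% and 23.6%. One of the 3, CYCB1;3, was lowest in library 1, with 9.58, 10.7 and 14.2 CPM. The lowest adjusted p among the 9 was 0.118, for CYCB3;1, which had 15.8, 10.9 and 13.1 CPM. Library 2 had the most counts and the highest pollen markers, and the part of either in this lean was not tested.

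**Figure D4:**
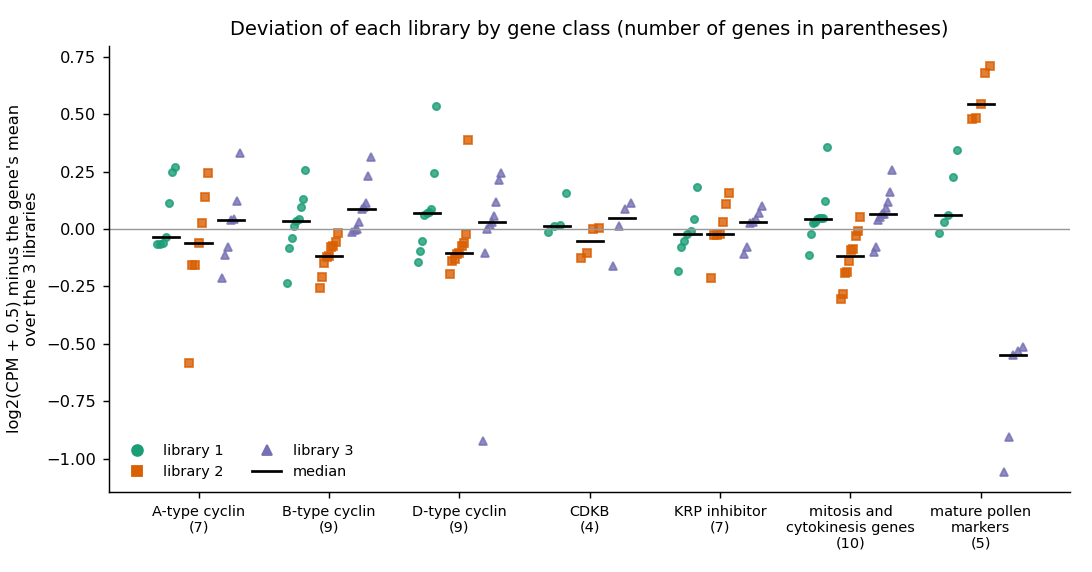
Deviation of each library from the gene's mean over the 3 libraries, in log2(CPM + 0.5), by gene class. Symbols are genes and black bars class medians, which lie at -0.12 for B-type cyclins in library 2 and, for the mature pollen markers, at 0.55 in library 2 and -0.55 in library 3.

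Other genes of the pathway, listed by role, place these values. Of 10 genes of mitosis and cytokinesis, 9 stood below their mean in library 2, with a median of -0.12, as did 9429 of all 18486 tested models, whose median was -0.0027. So did 16 of 21 replication genes, 8 of 10 other CDKs, activators and subunits and 4 of 5 E2F partners and atypical E2Fs. Of 13 genes of the anaphase-promoting complex and its CDC20 activators, 6 stood below. The test between libraries was passed by 3 of the 10 (HIK, BUBR1 and TPX2), against 11.6% of all models. HIK, a kinesin of cytokinesis, had 87.8, 70.8 and 84.4 CPM in libraries 1, 2 and 3 (edgeR adjusted p = 0.00156). The highest of the list was KN, the syntaxin of the cell plate, at 92.6 ± 4.98 TPM, and the lowest AUR3, an Aurora kinase, at 9.06 ± 2.33 TPM. Of 21 replication genes, 6 passed (MCM4, MCM5, ORC4, PCNA2, RNR1 and TSO2), where 11.6% of all tested models did. Library 3 was the highest for 15 of the 21, and for 6692 of all 18486 tested models. RNR1, the large subunit of ribonucleotide reductase, had 166, 151.5 and 192 CPM, a 1.27-fold range (edgeR adjusted p = 1.08e-07). It held 4376 counts, and at such depth the test against counting error passes small ranges. Its coefficient of variation beyond counting error was 0.0766, near the median of 0.0780 over all tested models. The list ran from ORC1A, of the origin recognition complex, at 2.60 ± 0.285 TPM to TSO2, the small subunit of ribonucleotide reductase, at 96.6 ± 10.8 TPM. The genes that passed were named after their values were seen.

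The anaphase-promoting complex, which marks mitotic cyclins for destruction, and its CDC20 activators had a median level of 11.9 TPM over 13 genes. CDC20.1 was the highest at 43.4 ± 1.11 TPM and CDC27a the lowest at 3.82 ± 0.294 TPM. Of the 13, 2 had an unadjusted p under 0.05 in edgeR's test and 1 passed, against 23.6% and 11.6% of all tested models. The gene that passed was CDC20.2 (edgeR adjusted p = 0.0442). It neighbours the similar CDC20.1, so reads could be shared. MYB3R factors, which bind the MSA element, ran from 21.2 ± 0.835 TPM for MYB3R1 to 3.86 ± 0.990 TPM for MYB3R5. Of the E2F partners and atypical E2Fs, DPB was the highest at 30.8 ± 1.78 TPM and DEL2 the lowest at 4.68 ± 0.614 TPM. Other CDKs, their activators and subunits had a median of 24.5 TPM over 10 genes, from CDKC;2, a kinase of transcription, at 69.6 ± 4.52 TPM to CDKD;1, a CDK-activating kinase, at 4.39 ± 0.682 TPM. In edgeR's test 0 of 4 MYB3R factors, 0 of 5 E2F partners and atypical E2Fs and 0 of 10 other CDKs, activators and subunits passed. At an unadjusted p under 0.05 there were 1, 0 and 1. Over all tested models the shares were 11.6% and 23.6%, and lists this short cannot be set apart from them.

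Relatives outside the 47 were mostly lower. Of 6 further cyclins, CYCA3;4 stood at 22.0 ± 0.524 TPM and the other 5 at 5.54 TPM or less, with CYCA3;3 at no counts in any library. Of 7 further SIAMESE-related inhibitors, the highest was AT5G02420 at 10.35 ± 0.277 TPM. SMR5, induced by DNA damage, had 0, 2 and 2 counts. Each of these 7 lay below both SIM and SMR1 in every library.

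**Figure D5:**
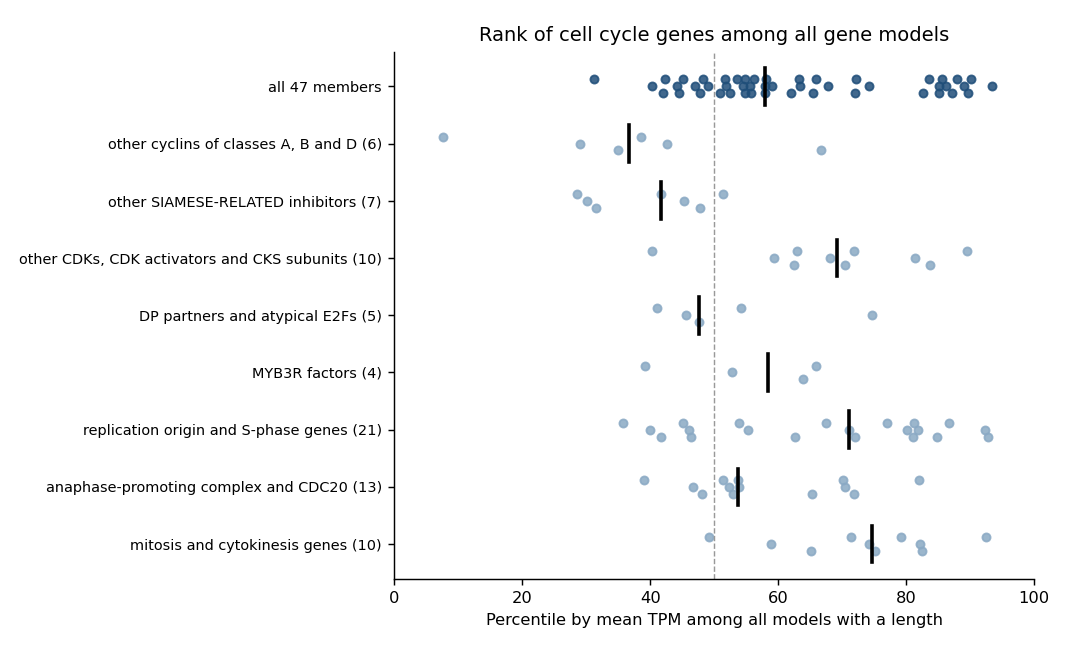
Percentile of each cell cycle gene by mean TPM among all models with a length, those without counts included. Circles are genes, black bars list medians and the dashed line the 50th percentile, and the 47 genes have a median of 58.0 with 12 genes above the 80th percentile.

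The 47 genes were spread over 5 chromosomes, with 13, 7, 9, 7 and 11 on chromosomes 1 to 5. The closest pair was AT4G37490 and AT4G37630 on chromosome 4, with 54.9 kb between them. A B2-type cyclin and a CDKB2 kinase lay near each other at 2 places on chromosome 1. CYCB2;4 lay 89.5 kb from CDKB2;1, and CYCB2;3 lay 155 kb from CDKB2;2. The cyclins at these places stood at 18.95 ± 0.277 and 15.6 ± 1.14 TPM, a mean ratio of 1.22 ± 0.0854, while the kinases differed by 2.68-fold ± 0.212. In total, 14 of the 47 genes overlap an annotated gene of the other strand. The libraries were directional, but whether the counting used the strand is not given in the sources used here, so reads of such partners may not be told apart.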

How the data were processed

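Directional RNA-seq was made from total RNA of A. thaliana Col-0 inflorescences after DNA digestion, per the labels' protocols. The authors deposited raw counts per gene model, whole numbers with a different total in each of the 3 libraries. The submitters' processing notes name TAIR10. The aligner, the counting tool and how strand and multiple matches were handled were not given in the sources used here. Names, exonic lengths and upstream sequences came from the RefSeq annotation and genome of TAIR10.1, in which all 47 loci matched by identifier. TPM was computed over the 26665 models with a length. The other 511 models hold 0.106% of counts.

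Differences among libraries were tested with edgeR 4.0.16 in R 4.3.3, with TMM scaling, models of at least 30 counts over the 3 libraries, a likelihood-ratio test with library as factor at dispersion 0, and Benjamini-Hochberg adjustment over 18486 models with a threshold of 0.05. Deviations use log2(CPM + 0.5). Other steps ran in Python 3.11.15 (numpy 2.4.6, pandas 2.3.3, matplotlib 3.10.9). Errors are SD over the 3 libraries.

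The genes, lists and the motif were chosen with earlier results of these data known. Any of the 47 could be named, with values per library for the highest and lowest of each class and for genes that passed the test with a range of 1.5-fold or more. Values per library of further genes, paralog ratios and shares were chosen after the levels were seen. 1 further upstream sequence, with a match to another motif, is not reported here. Of the other lists the highest and lowest genes are named. Alternatives were RLE scaling, raw totals, other count and CPM limits, a Pearson chi-square, coding length, CPM in place of TPM, models with a count only, and leaving out each library.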

Additional observations from a re-analysis of the deposited data

How the results depend on the processing

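No paired analysis was possible because the named genes were measured in 1 group, so no groups were compared. The count of 1 gene among the 47 that differed between libraries was also 1 with RLE scaling, raw library totals, a filter of 1 count and a Pearson chi-square. Under these settings 9.23% to 11.8% of all models tested were called. With a filter of 150 counts edgeR called 0 of 43 genes, with 7 at an unadjusted p under 0.05, since CYCD7;1, with 99 counts, was not tested. Of all models tested at that filter, 12.5% were called. Leaving out each library gave 0 to 1. Of all models tested, 8.6%, 6.91% and 3.93% were called without library 1, 2 and 3. The 0 came without library 3, with 5 of 46 genes at an unadjusted p under 0.05 in edgeR. The adjusted p of CYCD7;1 was 0.00833 to 0.0257 under the alternatives that tested it, apart from 0.885 without library 3. The number at 10 CPM or more was 30 when asked of every library, and 47 stood at 1 CPM or more. The median percentile was 50.4 among models with at least 1 count and 57.6 to 58.7 with a library left out. With coding in place of exonic length, class medians were 18.8 TPM (CDKB), 10.12 TPM (A-type cyclins), 13.6 TPM (KRP), 74.8 TPM (SIM), 3.95 TPM (WEE1), 9.98 TPM (E2F), 40.1 TPM (RBR1) and 10.6 TPM (CCS52). CYCB3;1 and KRP4 then moved by over 1.5 times, to 6.67 and 45.9 TPM. No gene's mean moved over 1.5 times with a library left out. CYCA2;1, with 37 counts, is the most limited by depth.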
